A study of Mus musculus with 11 samples.

Results

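The calcium and integrin binding (CIB) genes of the mouse, Cib1, Cib2, Cib3 and Cib4, were followed in liver. They were taken by name from the deposited gene table and make up 4 of its 31280 genes. All mice were wild-type C57BL/6 animals, and all ate a diet without methionine and choline (MCD) for 8 weeks. This diet deprives the liver of nutrients used to export fat and serves as a model of steatohepatitis, in which a fatty liver becomes inflamed and scarred. In the limonin group (6 libraries) the diet was combined with limonin, a bitter triterpenoid of citrus fruit, given into the stomach at 100 mg/kg for 4 weeks. In the MCD group (5 libraries) the diet was combined with water by the same route. No label states that each library is 1 animal, so p-values rest on the spread between libraries, which may be technical. Livers without the deficient diet were not analysed here. Expression is given in FPKM, fragments scaled to transcript length and library size, as the authors deposited it. The members were chosen by a measured value, the difference of Cib3 between these groups, so no difference of a Cib gene is tested.

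CIB proteins are small calcium sensors of the EF-hand type, a helix-loop-helix fold that binds calcium ions. CIB1 was named for its binding to the tail of the platelet integrin alphaIIb and also binds kinases such as PAK1 and ASK1 and the membrane proteins TMC6 and TMC8. CIB2 and CIB3 are known from the inner ear, where they pair with the TMC channels that turn sound and head movement into current. CIB4 is known from the mouse testis, where it is needed for male fertility.

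The 4 genes lie on 4 chromosomes, all on the minus strand (GENCODE M21, GRCm38). Cib1 (ENSMUSG00000030538) spans chr7:80227147-80232813, Cib2 (ENSMUSG00000037493) chr9:54544794-54560218, Cib3 (ENSMUSG00000074240) chr8:72204335-72212837 and Cib4 (ENSMUSG00000053194) chr5:30485583-30545836. No annotated gene overlaps Cib1 or Cib3. Cib2 overlaps Sh2d7 on the other strand, and Cib4 overlaps 2 non-coding genes, 1 of them on the other strand. The sources used here do not say whether reads were counted by strand. Sh2d7 was low, with a mean of 0.028 FPKM in limonin and 0.0167 FPKM in MCD libraries.

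The sequence around the starts of these genes differs in its CG content. The windows of 300 bases around the start of Cib3 and of Cib1, from 250 bases before it to 50 bases after it, are shown for the member chosen for its difference and the member with the highest level. They are from RefSeq (GRCm38.p6), minus strand, chr8:72212788-72213087 and chr7:80232756-80233055, with each CG dinucleotide in capitals. The Cib3 window is set on the start at base 72212837, which is the end of the GENCODE gene span, while the RefSeq gene record runs 249 bases further, to base 72213086. Of the 300 bases of the Cib3 window 299 therefore lie inside the gene as RefSeq spans it, and a promoter of that longer form is not in the window.
Cib3: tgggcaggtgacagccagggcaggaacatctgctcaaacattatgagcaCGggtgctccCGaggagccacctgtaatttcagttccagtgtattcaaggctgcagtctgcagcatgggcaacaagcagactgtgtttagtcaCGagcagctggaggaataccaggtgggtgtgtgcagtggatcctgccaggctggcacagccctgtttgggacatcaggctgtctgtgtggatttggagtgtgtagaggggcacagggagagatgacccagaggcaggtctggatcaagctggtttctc
Cib1: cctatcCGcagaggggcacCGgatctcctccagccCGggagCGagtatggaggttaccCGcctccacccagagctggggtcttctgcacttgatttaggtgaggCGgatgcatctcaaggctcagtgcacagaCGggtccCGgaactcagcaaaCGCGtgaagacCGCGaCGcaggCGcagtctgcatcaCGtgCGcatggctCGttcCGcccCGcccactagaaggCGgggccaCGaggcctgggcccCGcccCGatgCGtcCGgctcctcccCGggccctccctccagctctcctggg
The Cib3 window holds 3 CG dinucleotides and the Cib4 window 2, against 26 in the Cib1 window and 20 in the Cib2 window. The median over all 32851 windows of the same length is 7, and 23.3% of them hold fewer than Cib3 while 83.1% hold fewer than Cib1. Motifs of stress and growth factors were searched on both strands. The C/EBP-ATF response element TGATGNAA (in 3.97% of all windows), the unfolded protein response element TGACGTGG (0.676%), the cAMP response element TGACGTCA (1.79%), the AP-1 element TGANTCA (7.81%) and the TEAD element GGAATG (14.7%) were not among the letters of the Cib3, Cib1 or Cib2 windows. The Cib4 window held 1 AP-1 and 1 TEAD match. For Cib3 these counts describe the window of the inner start.

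Cib3 was lower in every limonin library than in any MCD library. Over the whole comparison 25.9% of the 10489 genes tested were called by limma (threshold 0.05 after Benjamini-Hochberg adjustment), 18.7% lower and 7.24% higher. The numbers behind these shares, 1957 lower and 759 higher, were 1080 and 328 without MCD 2, and 474 were higher without MCD 1. Limonin libraries 1 to 6 had 2.11, 1.15, 1.98, 3.15, 1.61 and 2.77 FPKM of Cib3, against 17.2, 24.3, 9.83, 9.59 and 15.4 FPKM in MCD libraries 1 to 5. The groups stood apart: the lowest MCD library was 3.04 times the highest limonin library. The means were 2.13 ± 0.737 FPKM (SD, n = 6) with limonin and 15.3 ± 6.06 FPKM (SD, n = 5) in MCD libraries, a ratio of 0.14. On the scale of log2(FPKM + 1) the fold change, limonin minus MCD, was -2.33 ± 0.23 (SE). Cib3 was singled out because of this difference, which ranked 10 among the decreases of 10489 genes tested, so it stands as a description. Of the 9 genes with larger decreases, named after their values were seen, 6 are known from salivary and tear glands (Mucl2, Scgb1b27, Scgb2b26, Scgb2b27, Prol1 and Smgc). Their groups overlapped: Mucl2 ran from 0 to 73.5 FPKM with limonin and from 60 to 427 FPKM in MCD libraries. Limonin libraries 1 to 6 had 58.9, 0.278, 73.5, 21.3, 0 and 0 FPKM of Mucl2, against 60, 427, 308, 85.9 and 171 FPKM in MCD libraries 1 to 5. The part of gland RNA in the Cib3 difference was not tested.

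Cib3 passed the filter of 1 FPKM in 5 libraries through both groups, since all 11 libraries reached 1 FPKM. Its spread within a group was wide on a relative scale, with a coefficient of variation of 34.6% with limonin and 39.7% in MCD libraries. In MCD libraries the highest library was 2.53 times the lowest, and with limonin 2.75 times. The deposited table lists 3 transcripts of Cib3, 2 of which are in GENCODE M21, a retained intron of 2014 bases and a protein-coding transcript of 585 bases in 5 exons. FPKM per gene do not say which of them gave the reads. Read at the length of the coding transcript, the values stand for about 12.8 to 35.2 fragments per limonin library and 89.3 to 270 fragments per MCD library. In the authors' deposited table the log2 ratio of the group means of Cib3 is -2.84, larger than the value above because it has no pseudocount of 1.

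Cib1 had the highest level of the family. Limonin libraries 1 to 6 had 29.7, 22.4, 32.9, 28.2, 32.6 and 27.9 FPKM of Cib1, against 36.4, 37.7, 35.9, 34.9 and 36.8 FPKM in MCD libraries. No limonin value reached the MCD range, but the gap was narrow, 32.9 against 34.9 FPKM. The means were 28.9 ± 3.86 FPKM with limonin and 36.3 ± 1.04 FPKM in MCD libraries (SD, n = 6 and 5), and the log2 fold change was -0.33 ± 0.10 (SE). After median-ratio scaling of the libraries the change was -0.18. The share of called genes that were higher was 27.9% before any rescaling, 57.4% after median-ratio scaling and 52.9% after quantile scaling, and the median gene was at -0.07, 0.05 and 0.03 on these scales.

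Cib2 did not separate the groups. Limonin libraries 1 to 6 had 3.88, 3.06, 2.96, 2.26, 3.75 and 1.94 FPKM of Cib2, against 1.8, 5.58, 3.96, 4.07 and 2.77 FPKM in MCD libraries. All 6 limonin values lay inside the MCD range. The means were 2.98 ± 0.776 FPKM with limonin and 3.64 ± 1.43 FPKM in MCD libraries (SD, n = 6 and 5), and the log2 fold change was -0.19 ± 0.20 (SE). MCD 1, among the highest for Cib3, was the lowest of all 11 libraries for Cib2. With the single annotated transcript of 1433 bases, the Cib2 values stand for about 47.9 fragments in MCD 1, the smallest number, and 152 in MCD 2, the largest.

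Cib4 was at the edge of detection. Limonin libraries 3, 5 and 6 had 0.116, 0.0577 and 0.126 FPKM of Cib4 and MCD libraries 2 and 3 had 0.0315 and 0.0765 FPKM, while the other libraries were listed at 0. The largest implied number, in limonin 3, was 1.75 fragments of the transcript of 769 bases. No library reached 1 FPKM, so Cib4 did not enter the main fit, and in the fit without a filter its log2 fold change was 0.04 ± 0.04 (SE). Markers of spermatids, the late male germ cells, were also present in these libraries: their summed level ran from 22.5 to 151 FPKM with limonin and from 3.05 to 33.1 FPKM in MCD libraries, with 9 of 11 tested markers called higher. Since 9 of the 11 passed the filter through the limonin group alone, this count is set in part by the filter. Of all tested genes 7.24% were called higher. The count of 9 was not stable, and it was 1 without limonin 4, MCD 4 or MCD 5, 2 without limonin 6 or MCD 2, and 4 without limonin 3, limonin 5 or MCD 1. Without limonin 5 and 6 together it was also 1. The 2 highest Cib4 values were in limonin 6 and limonin 3, which ranked the first and the third for the summed spermatid markers (151 and 92 FPKM). They stand for about 1.73 and 1.75 fragments. Limonin 5 had 116 FPKM of these markers and 0.0577 FPKM of Cib4, and limonin 4 had 66.8 FPKM and 0 FPKM. The part of germ cell RNA in the Cib4 values was not tested.

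**Figure D1:**
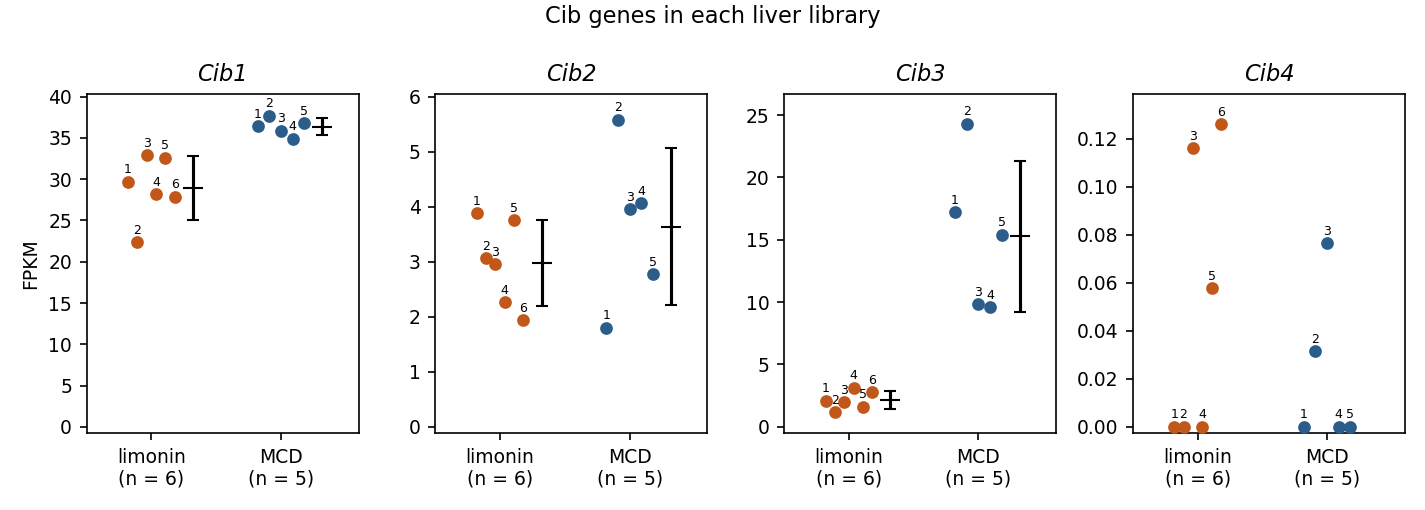
FPKM (vertical axes, each from 0) of the 4 Cib genes in the 6 limonin libraries (orange, left) and the 5 MCD libraries (blue, right), with replicate numbers beside the points and mean ± SD in black except for Cib4. The Cib3 groups are separated by a wide gap (3.15 against 9.59 FPKM), those of Cib1 by a narrow one, and those of Cib2 and Cib4 overlap.

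FPKM are per length, so levels of the 4 genes can be set side by side. Cib1 was the highest of the family in all 11 libraries and Cib4 the lowest. Between them the order differed by library. Cib3 was above Cib2 in 2 of 6 limonin libraries (4 and 6) and in 5 of 5 MCD libraries. The ratio of the Cib3 level to the Cib2 level had a median of 0.607 with limonin (0.375 to 1.42) and of 4.36 in MCD libraries (2.36 to 9.53). Cib3 made up 4.23% to 9.4% of the summed FPKM of the 4 genes with limonin, against 19.8% to 36.0% in MCD libraries. The summed FPKM of the family had a median of 34.6 with limonin and 55 in MCD libraries. These ratios use the values for which Cib3 was chosen and are a description.

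Of the coding neighbours of Cib3, Gm11034, 657 bases away, has no value here. On the other side, 2808 bases away, Hsh2d, an adaptor protein of blood cells, averaged 0.141 ± 0.105 FPKM (SD, n = 6) with limonin and 0.271 ± 0.141 FPKM (SD, n = 5) in MCD libraries, too low to be tested. Gdpgp1, which starts 52 bases from Cib1 on the other strand, averaged 0.496 ± 0.193 FPKM with limonin and 0.441 ± 0.0775 FPKM in MCD libraries (SD, n = 6 and 5) and was not tested either. On the other side of Cib1, 620 bases away, the semaphorin gene Sema4b fell, with 1.93 ± 0.314 FPKM with limonin, 2.75 ± 0.452 FPKM in MCD libraries and a log2 fold change of -0.36 ± 0.11 (SE, adjusted p = 0.0299). Idh3a, a citrate cycle enzyme gene 26116 bases from Cib2, was at -0.02 ± 0.11 (adjusted p = 0.904).

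Genes of known CIB binding partners were mostly low in these libraries, and those that were called were lower with limonin. Of 25 listed partners 11 were tested, and 6 of these fell, 0 rose and 5 were not called, with a median log2 fold change of -0.39, against 18.7% of all genes called lower and a median of -0.07. The stress-induced kinase gene Plk3, whose protein binds CIB1, had 16.4 to 35.6 FPKM with limonin (median 25 FPKM) and 42.7 to 84.1 FPKM in MCD libraries, without overlap. It fell by 1.31 ± 0.21 (SE) on the log2 scale (adjusted p = 0.00214). Its relative Plk2 fell by 0.63 ± 0.15 (adjusted p = 0.00888), the motor protein gene Myo7a of hair cells by 0.56 ± 0.12 (0.00704) and the adaptor gene Traf2 by 0.44 ± 0.12 (0.016). The call of Traf2 was lost without MCD 2 (adjusted p = 0.051), where 3 partners were called lower, and 1 partner was called higher without limonin 5, limonin 6 or MCD 1. Median-ratio scaling left 6 called lower and added 3 called higher. A gene that reached 1 FPKM in all 5 MCD libraries and in fewer than 5 limonin libraries passed the filter through the MCD group alone, and a count of decreases that includes such genes is set in part by the filter. There were 586 such genes among the 10489 tested, and none among the partners.

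Partners named here for their roles, outside the rule for named genes, included both called and untested genes. Tmc6 fell by 0.39 ± 0.11 (adjusted p = 0.0186) and Pak1 by 0.49 ± 0.15 (0.0256). Itga2b, which encodes integrin alphaIIb, ran from 0.376 to 0.637 FPKM with limonin and from 0.67 to 1.33 FPKM in MCD libraries and was too low to be tested. Pf4, a platelet chemokine and the 1 tested platelet marker of 10, fell by 1.26 ± 0.21 (adjusted p = 0.00253). Tmc1, the hair cell channel that CIB2 and CIB3 bind, did not exceed 0.0112 FPKM with limonin or 0.00896 FPKM in MCD libraries.

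Of 26 integrin subunit genes 13 were tested, and 8 fell, 0 rose and 5 were not called (median -0.49). The share lower was 61.5%, against 18.7% of all genes. Itgb7, the beta subunit of a lymphocyte homing receptor, averaged 0.925 ± 0.184 FPKM with limonin and 2.18 ± 0.489 FPKM in MCD libraries (SD, n = 6 and 5). It fell by 0.72 ± 0.11 on the log2 scale (adjusted p = 0.00165). Itga9 fell by 0.48 ± 0.10 (0.00675), Itga3, a laminin receptor subunit, by 0.65 ± 0.15 (0.00899) and Itga5, the fibronectin receptor subunit, by 0.65 ± 0.17 (0.0138). Without limonin 2 or MCD 2 the number called lower was 5. Of the 8 genes called lower, 4 passed the filter through the MCD group alone, Itgb7 and Itga9 among them.

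Other EF-hand calcium sensors related to CIB were mixed. Of 37 listed genes 19 were tested, and 6 fell, 1 rose and 12 were not called (median -0.21). The shares were 31.6% lower and 5.26% higher, against 18.7% and 7.24% of all genes. Tesc, which encodes tescalcin, averaged 0.802 ± 0.624 FPKM with limonin and 3.88 ± 1.58 FPKM in MCD libraries (SD, n = 6 and 5) and fell by 1.43 ± 0.25 (adjusted p = 0.0031). Efhd2, which encodes swiprosin, fell by 0.68 ± 0.17 (0.012) and the calmodulin-like gene Calml4 by 0.40 ± 0.11 (0.019). Chp1, a calcineurin B-like protein, was the 1 gene that rose, with 79.4 ± 14.9 FPKM with limonin, 57.4 ± 1.78 FPKM in MCD libraries and a log2 fold change of 0.44 ± 0.12 (0.015). Of the 6 genes called lower, 3 passed the filter through the MCD group alone, Tesc (in 1 of 6 limonin libraries at 1 FPKM) and Calml4 among them. The number called lower was 3 after median-ratio or quantile scaling, and also 3 without limonin 6, MCD 1, MCD 2 or MCD 5.

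Cib3 was then set beside genes of stress and fibrosis. The integrated stress response is the programme in which ATF4 and CHOP, the product of Ddit3, switch on amino acid and survival genes when protein synthesis is curbed. Of its 30 listed genes 26 were tested, and 11 fell, 0 rose and 15 were not called, 42.3% lower against 18.7% of all genes, with a median of -0.38. Ddit3 had 9.36, 4.76, 10, 14.1, 7.24 and 4.83 FPKM in limonin libraries 1 to 6, against 17.2, 20.8, 14.7, 18.8 and 18.4 FPKM in MCD libraries. The groups did not overlap, and Ddit3 fell by 1.09 ± 0.22 (adjusted p = 0.00547). Atf3, a stress-induced repressor, fell by 1.58 ± 0.31 (0.00537), the stress cytokine gene Gdf15 by 1.64 ± 0.32 (0.00546) and Phgdh, the first enzyme of serine synthesis, by 1.13 ± 0.20 (0.00277). Phgdh reached 1 FPKM in 1 of 6 limonin libraries and passed the filter through the MCD group alone. Trib3, a target of CHOP, was at -0.15 ± 0.20 (0.612) and Asns, which makes asparagine, at 0.03 ± 0.22 (0.933). The hormone gene Fgf21 fell by 1.52 ± 0.50 (0.0474), a call that 9 of 11 fits without 1 library lost. The number of called genes was 7 without MCD 1, 6 without MCD 2 and 6 with no filter, and 1 gene was called higher without limonin 6 or MCD 5.

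Chaperones of the endoplasmic reticulum moved little. Of 33 tested genes 2 fell, 1 rose and 30 were not called (median 0.06), and after median-ratio scaling 0 were lower and 8 higher. The shares in the main fit, 6.06% lower and 3.03% higher, were below those of all genes (18.7% and 7.24%). The number called higher was 6 after quantile scaling, 3 without limonin 5 and 2 without limonin 1 or limonin 6. Hspa5, the central chaperone, had 100.4 ± 15.5 FPKM with limonin and 87.0 ± 14.3 FPKM in MCD libraries (SD, n = 6 and 5), a log2 fold change of 0.21 ± 0.13 (adjusted p = 0.268). Dnajb9, a target of the transcription factor XBP1, was at 0.19 ± 0.17 (0.432). The co-chaperone gene Dnajc3 rose by 0.53 ± 0.13 (0.0119), and the translocon gene Sec61b fell by 0.54 ± 0.15 (0.0171), a call lost after median-ratio scaling and with no filter. Derl3, a degradation factor, fell by 0.39 ± 0.13 (0.0424), a call that 8 of 11 fits without 1 library lost. In 6 of the fits without 1 library, those without limonin 1, 4 or 6 or MCD 1, 2 or 5, 1 gene was called lower.

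Among targets of NRF2, the regulator of antioxidant genes, 3 of 30 tested genes fell, 1 rose and 26 were not called (median -0.16). In the main fit both the share lower and the share higher were below those of all genes (18.7% and 7.24%). Hmox1, which degrades haem, averaged 18.9 ± 2.15 FPKM with limonin and 45.7 ± 20.4 FPKM in MCD libraries (SD, n = 6 and 5) and fell by 1.13 ± 0.23 (adjusted p = 0.00533). Taldo1, a pentose phosphate enzyme, fell by 0.54 ± 0.13 (0.00976), and Me1, the malic enzyme, rose by 0.58 ± 0.10 (0.002). Osgin1 fell by 0.60 ± 0.20 (0.0372), a call that 7 of 11 fits without 1 library lost. The number called lower was 7 without limonin 3 and 5 without MCD 4, and the number called higher was 2 without limonin 5 or MCD 1 and 3 after median-ratio scaling.

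Most genes of matrix and fibrosis fell: of 37 tested, 31 fell, 1 rose and 5 were not called, 83.8% lower against 18.7% of all genes, with a median of -0.96. Of the 31, 6 passed the filter through the MCD group alone. Col1a1, which encodes a type I collagen chain, had 4.37, 4.06, 5.27, 2.47, 1.48 and 2.64 FPKM in limonin libraries 1 to 6, against 19.3, 19.9, 11.6, 5.95 and 23.3 FPKM in MCD libraries. The groups did not overlap, although MCD 4 came within 1 FPKM of limonin 3. Bgn, a matrix proteoglycan, had 12.2 to 18.1 FPKM with limonin (median 16.3 FPKM) and 22.1 to 47.7 FPKM in MCD libraries and fell by 1.14 ± 0.16 (adjusted p = 0.00136). Vim, the intermediate filament of mesenchymal cells, fell by 1.28 ± 0.17 (0.0012), the protease inhibitor gene Timp2 by 0.94 ± 0.14 (0.00165) and the muscle filament gene Des by 0.74 ± 0.12 (0.00165). Fn1, fibronectin, was the 1 gene that rose, by 0.70 ± 0.18 (0.0156).

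**Figure D2:**
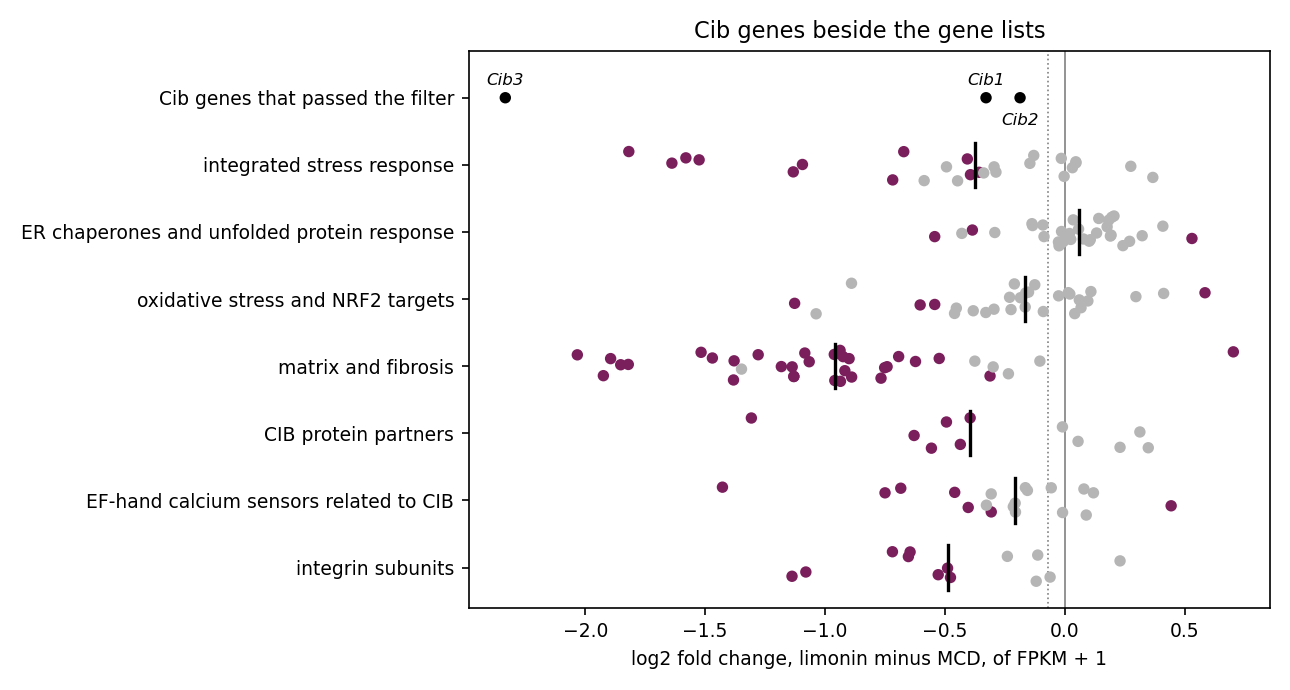
Log2 fold change of FPKM + 1, limonin minus MCD (horizontal axis), for the 3 Cib genes that passed the filter (black) and for each tested gene of 7 lists (purple where called at an adjusted p under 0.05, grey where not), with list medians as bars and the median of all tested genes (-0.07) dotted. Cib3 at -2.33 lies beyond the genes of all 7 lists, and Cib1 and Cib2 lie near the middle.

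Because Cib3 separates the groups, and so do many of these genes, no correlation over all 11 libraries is given, and relations were examined inside the limonin group. Over its 6 libraries, 13 of 16 listed stress and fibrosis genes had a positive Pearson r with Cib3 on the log2 scale, and 10 of 16 after median-ratio scaling. None of the 16 passed the exact permutation test after Benjamini-Hochberg adjustment (0 of 16, smallest adjusted p = 0.794), and 0 had an unadjusted p under 0.05. The counts were also 0 and 0 for Spearman's rho. The smallest p that 6 libraries allow is 0.00278.

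The highest r was that of Fgf21, at 0.71 (rho 0.49, exact permutation p = 0.107 and 0.356, adjusted p = 0.794 and 0.839). Ddit3 had r = 0.52 (rho 0.60), with exact permutation p = 0.299 and 0.242, adjusted p = 0.794 and 0.839. Bgn had r = 0.63 (rho 0.43), with exact permutation p = 0.179 and 0.419, adjusted p = 0.794 and 0.839. Col1a1 had r = -0.18 (rho -0.14), with exact permutation p = 0.706 and 0.803, adjusted p = 0.867 and 0.918. Timp1, the inhibitor of matrix proteases, had r = -0.47 (rho -0.77), with exact permutation p = 0.342 and 0.103, adjusted p = 0.794 and 0.839. Without limonin 2 and 4, the lowest and the highest for Cib3, 4 of 16 r kept their sign, and those of Fgf21, Ddit3 and Bgn became -0.21, -0.59 and -0.29. This leaves 4 libraries over a narrow range of Cib3, and negative r turned positive as well (Asns from -0.43 to 0.44). After median-ratio scaling limonin 4 and 6 were farthest from the median, and without them the r of these 3 genes were 0.73, 0.97 and 0.89. The signs thus changed with the libraries kept and with the scaling. Read at the length of the coding transcript, Cib3 itself stood for about 12.8 fragments in limonin 2 and 35.2 in limonin 4.

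In MCD libraries 5 libraries are too few for a correlation, and the values are given. MCD 1, 2 and 5 had the 3 highest Cib3 levels, 17.2, 24.3 and 15.4 FPKM, and MCD 3 and 4 the lowest, 9.83 and 9.59 FPKM. The same 3 libraries were the highest for 6 of the 8 fibrosis genes and for 3 of the 8 stress genes. How many of all tested genes share these 3 libraries was not counted, so these numbers have no background and show no particular link. Timp1, for example, had 12.3, 9.59 and 7.55 FPKM in MCD 1, 2 and 5 and 2 and 1.56 FPKM in MCD 3 and 4. Ddit3 and Gdf15 did not share this order, with MCD 4 among the 3 highest for both.

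**Figure D3:**
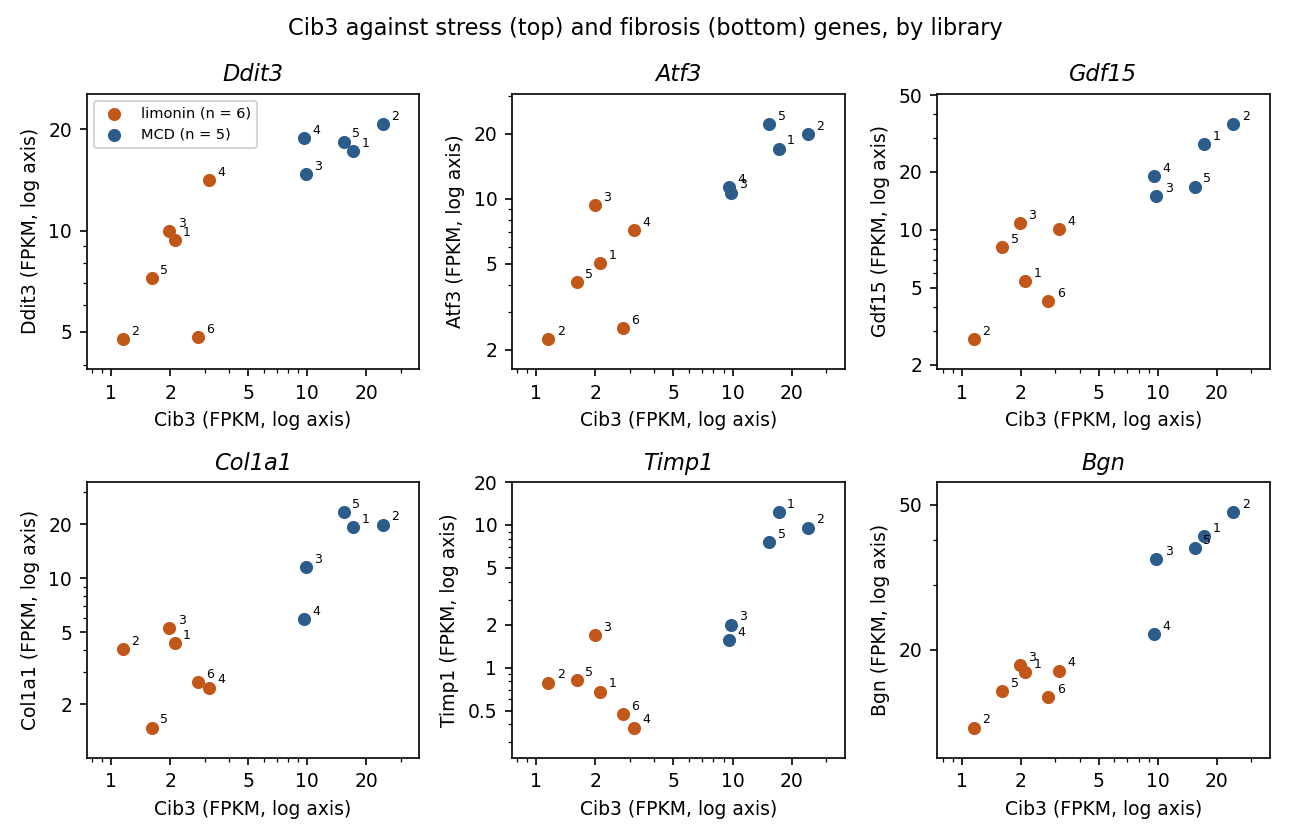
Cib3 (horizontal, FPKM, log axis) against 3 stress genes (top) and 3 fibrosis genes (bottom; vertical, FPKM, log axes) in each limonin library (orange) and MCD library (blue), with replicate numbers. MCD 1, 2 and 5 are at the upper right in the fibrosis panels, and the limonin libraries form a separate cloud in which 0 of 16 relations passed the exact permutation test after adjustment.

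Likeness to Cib3 was also described over both groups after the group mean was taken from each value, which removes the difference between groups. The 11 deviations of a gene share library and depth, so the values are descriptive. The measure pools both groups and does not show whether a relation holds in each. In the limonin group alone 13 of 16 listed stress and fibrosis genes had a positive r (10 after median-ratio scaling). Those of Timp1 and Col1a1 were negative there, at -0.47 and -0.18, against 0.59 and 0.445 by the pooled measure. After median-ratio scaling the pooled r of Timp1 and Col1a1 were smaller, 0.505 and 0.31, while that of Acta2 went from 0.034 to 0.042. The list medians that follow were not computed after that scaling. The median r with Cib3 was 0.174 over the other 10488 tested genes and 0.614 over the 37 matrix and fibrosis genes, 36 of them positive, against 68.7% of all genes. It was 0.435 over the integrated stress response, 0.157 over the chaperones, 0.444 over NRF2 targets, 0.567 over integrins, 0.363 over CIB partners and 0.295 over related EF-hand genes. It was 0.625 over stellate cell markers, 0.446 over macrophage, 0.346 over cholangiocyte and 0.307 over spermatid markers. It was -0.008 over endothelial markers and -0.201 over both hepatocyte and lymphocyte markers. The matrix and the stellate cell list overlap (Des, for example, is in both), so their medians are not independent.

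Leaving out predicted genes, the 8 genes most like Cib3 by this measure were Cdyl, Cracr2b, Zswim8, Micall2, Tsen15, Trmt2a, Ly6c2 and Nrarp, with r of 0.97 to 0.86 over 11 libraries. Cracr2b (r = 0.92), an EF-hand protein related to a regulator of calcium entry, had 1.9 to 2.53 FPKM with limonin (median 2.28 FPKM) and 3.57 to 6 FPKM in MCD libraries, without overlap. It fell by 0.84 ± 0.12 (adjusted p = 0.0012). Cdyl, a chromatin reader, followed Cib3 within groups but not between them: it averaged 1.16 ± 0.098 FPKM with limonin and 0.837 ± 0.125 FPKM in MCD libraries (SD, n = 6 and 5), a log2 fold change of 0.23 ± 0.08 (adjusted p = 0.0566). Cdyl reached 1 FPKM in 6 limonin libraries and 1 MCD library, so it passed the filter through the limonin group. Micall2, Tsen15 and Nrarp passed it through the MCD group alone. Group differences of these low genes thus depend in part on the filter.

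**Figure D4:**
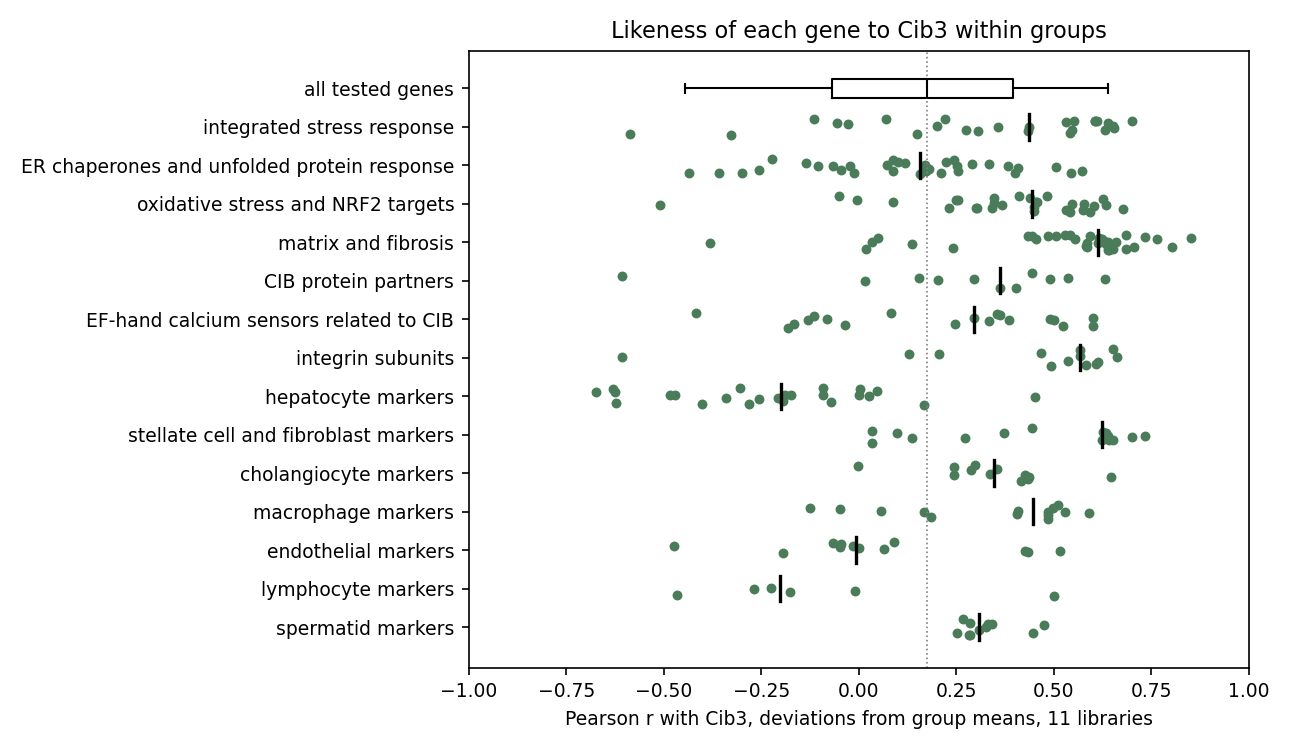
Pearson r with Cib3 of deviations from group means over 11 libraries (horizontal axis), as a box with quartiles and 5th to 95th percentiles for all tested genes and as points with median bars for each list with at least 6 tested genes. Matrix and stellate cell genes, from lists that overlap, have medians of 0.614 and 0.625, against 0.174 for all genes. Hepatocyte and lymphocyte markers have medians of -0.201. All values are without rescaling of the libraries. The measure pools both groups and does not show whether a relation holds in each.

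Cell type markers also differed between these libraries, and in bulk RNA fewer cells of a type and less RNA per cell cannot be told apart. Of all tested genes 18.7% fell and 7.24% rose, and the marker counts are to be read beside these shares. Markers of stellate cells and fibroblasts summed to 125 to 154 FPKM with limonin and 190 to 307 FPKM in MCD libraries, and 12 of 15 tested fell. Cholangiocyte markers summed to 56.2 to 152 FPKM with limonin and 125 to 542 FPKM in MCD libraries (9 of 12 fell, 4 of them having passed the filter through the MCD group alone, and 5 fell without MCD 2). Macrophage markers summed to 174 to 288 FPKM with limonin and 267 to 973 FPKM in MCD libraries (8 of 14 fell, 5 without limonin 2 and 2 without MCD 2). Hepatocyte markers summed to 56692 to 81023 FPKM with limonin and 53609 to 67307 FPKM in MCD libraries (8 of 24 rose, 5 without MCD 1 or MCD 2, and 1 was lower without limonin 4 or 5).

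Of 16 lymphocyte markers 6 were tested and all 6 fell, Cd79b and Jchain having passed the filter through the MCD group alone (2 fell without limonin 6 or MCD 2, and 3 without limonin 3 or 4 or MCD 3 or 4), with sums of 19.4 to 48.8 FPKM with limonin and 40.4 to 91.2 FPKM in MCD libraries. Of 12 endothelial markers 2 fell and 1 rose, 16.7% and 8.33%, near the shares of all genes (18.7% and 7.24%). Their sums were 54.8 to 77.8 FPKM with limonin and 54 to 102 FPKM in MCD libraries. The 1 endothelial marker that rose lost its call in 8 of 11 fits without 1 library. In 8 of the 11, partly the same fits, 1 in place of 2 was lower. The 1 tested heart and muscle marker was not called, and that list summed to 22.7 and 14.5 FPKM in limonin 5 and 6 and to 4.65 FPKM or less in the other libraries. No marker of any list was at 0 in every library. The part of these shifts in the Cib3 difference was not tested. Without limonin 5 and 6 together, a fit added after seeing the data, the log2 fold change of Cib3 was -2.35. The limonin libraries that remain all lay below every MCD library for Cib3. That fit therefore could not have reversed the sign, and it tests no cause.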

How the data were processed

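Mouse liver RNA was sequenced in 11 libraries from poly(A) RNA fragments, with dUTP in the second strand, per the labels' protocols. The submitters' processing notes name cutadapt 1.9, HISAT2 2.0.4, StringTie 1.3.4d and the build GRCh38, a human build, while the gene identifiers are those of mouse. The authors deposited FPKM per gene and library, and, per the file headers, their ratio of group means, its log2 value and p-values and q-values; which test gave these is not stated in those headers.

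FPKM were transformed to log2(FPKM + 1). The filter of 1 FPKM in 5 or more libraries left 10489 of 31280 genes, tested using R 4.3.3 and limma 3.58.1 (with a trend and robust variances; two-sided; Benjamini-Hochberg over all genes tested; threshold 0.05), a procedure tested on simulated data. Fold changes on the log2(FPKM + 1) scale are too small for low genes. Positions are from GENCODE M21, in which 31191 gene identifiers were found; all 4 Cib genes matched a RefSeq promoter window. In genes with 1 transcript, the most frequent product of FPKM and transcript length between 40 and 80 was read as 1 fragment, which implied 15520000 to 19630000 fragments per library; 9742 to 11087 genes per library reached 1 FPKM. No counting intervals are given.

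Members and the 16 lists were chosen with earlier results of these data known. Named genes are the members, each list's genes with the smallest p (at most 4), 16 listed stress and fibrosis genes, the 8 genes most like Cib3 and the nearest coding neighbours. Where a count of called genes in the minority direction was small, its genes were named after their values were seen. Alternatives changed the filter, the pseudocount (0.1 or 0.01), the scaling (median-ratio or quantile) or the trend, set replicate numbers as blocks, or left out a library, and, added after seeing the data, both limonin 5 and 6.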

Additional observations from a re-analysis of the deposited data

Results flagged for a closer look

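In 70 groups of values examined for a single library far from the others, 5 were found, and chance alone gives about 1 in 20. Of these, 3 concern limonin 3: Col3a1 at 5.88 FPKM (other limonin libraries 2.28 to 3.55 FPKM), Timp1 at 1.69 FPKM (0.379 to 0.816 FPKM) and the summed cholangiocyte markers at 152 FPKM (56.2 to 90.5 FPKM). In limonin 3 Cib3 was at 1.98 FPKM, close to its group median of 2.05 FPKM. The chaperone gene Dnajb9 reached 32.2 FPKM in limonin 4, the library with the highest Cib3 of its group, against 14.5 to 21.1 FPKM in the other limonin libraries. Spp1, which encodes the matrix protein osteopontin, reached 353 FPKM in MCD 1, against 52.3 to 132 FPKM in the other MCD libraries. None of the 4 Cib genes had such a library in either group (Cib4, mostly listed at 0, was not examined).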

How the results depend on the processing

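Cib3 was chosen for its difference, and every limonin library lay below every MCD library. Leaving out a library therefore could not reverse its sign. The log2 fold change of Cib3 ranged from -2.47 to -2.15 with each library left out and kept its sign in every alternative run. It was -2.82 with a pseudocount of 0.01, since a smaller pseudocount enlarges the change of a low value. That of Cib1 was -0.37 to -0.26 with each library left out and -0.18 after median-ratio scaling, that of Cib2 -0.35 to -0.05 with each library left out, and that of Cib4 0.02 to 0.06, with 0.25 and 0.66 at pseudocounts of 0.1 and 0.01. Genes called numbered 1424 with a filter at 5 FPKM, where 5297 genes were tested, and 1408 to 3062 with each library left out, lowest without MCD 2. Genes called lower, over the fits with each library left out, numbered 6 to 15 (stress response), 1 to 3 (chaperones), 2 to 7 (NRF2), 27 to 32 (matrix), 3 to 6 (partners), 3 to 6 (EF-hand) and 5 to 8 (integrins). With the filter at 5 FPKM they numbered 1 (chaperones), 16 (matrix), 2 (partners), 2 (EF-hand) and 1 (integrins), fewer genes being tested. With no filter they were 6 (stress response) and 0 (chaperones), and after median-ratio and quantile scaling 0 and 1 (chaperones) and 3 and 3 (EF-hand). Without limonin 5 and 6 they were 7 (stress response), 1 (chaperones), 3 (EF-hand) and 5 (integrins). Where no cause is named, the cause was not tested.

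The replicate numbers do not pair the libraries: same-numbered libraries had correlations of -0.24 to 0.20 in their deviations from group means, and 1 of 5 MCD libraries correlated best with its own number. With the replicate number as a block, 1256 genes were called, and genes called lower were 2 (stress response), 0 (chaperones), 3 (partners), 2 (EF-hand) and 3 (integrins); Cib3 was at -2.39. The number of called relations of Cib3 was 0 in every alternative run; for deviations from group means over 11 libraries 2 of 16 had an unadjusted p under 0.05. Genes of low level limit these values. Read at the length of its coding transcript, Cib3 rested on about 12.8 to 35.2 fragments per limonin library, and Cib4 rested on at most 1.75.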
